A study of Mus musculus with 15 samples.

Results

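The genes described here are 9 genes of macrophage fusion and osteoclast formation, taken by name: the fusion receptors Dcstamp and Ocstamp, the adhesion molecules Cdh1 and Itgb3, the resorption enzymes Acp5 and Ctsk, the proton pump subunit Atp6v0d2, the receptor Oscar and the transcription factor Nfatc1. They are 9 of the 25700 gene identifiers in the count table, and they were taken by name with no threshold on measured values, although earlier results of these data were known when they were chosen. Their RNA was counted in 15 libraries of mouse bone marrow derived macrophages, 3 libraries in each of 5 groups. Marrow from femurs and tibias of mice aged 8 to 10 weeks was grown for 7 days with M-CSF at 10 ng/ml, which all groups share. Controls received nothing further. Of the treated groups, 2 received heme-albumin, at 200 or at 400 µM. A further group received IL-4 (M2 in the labels) and the last IFN-γ (M1 in the labels), each at 10 ng/ml. Heme-albumin is hemin, the oxidized chloride form of heme, bound to human serum albumin, and no group received albumin alone. No group received RANKL, the cytokine that drives osteoclast formation, per the protocols in the labels. For 2 libraries at 400 µM the treatment field of the labels differs from the title and the protocol, and the title was followed. Mouse strain and length of treatment are not given in the sources used here. Whether the 3 libraries of a group come from different animals is not stated, and the p-values below then describe only library-to-library spread, which may be technical.

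Osteoclasts are bone-resorbing giant cells that form when macrophage-lineage precursors fuse under M-CSF and RANKL. RANKL acts through its receptor RANK and co-receptors such as OSCAR to switch on NFATc1, which in turn drives the genes for fusion (DC-STAMP, ATP6V0d2), attachment to bone (integrin αvβ3) and resorption (TRAP, the product of Acp5, and cathepsin K). Macrophages can also fuse without RANKL: IL-4 makes them form multinucleated giant cells of the foreign body type, a process in which DC-STAMP, OC-STAMP and E-cadherin take part, whereas IFN-γ is known as an inhibitor of osteoclast formation.

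Levels are CPM, the usual depth-scaled count, with each library's total adjusted by TMM, and means are given ± SD over n = 3 libraries. Changes are log2 fold changes ± SE from edgeR's quasi-likelihood test, and a gene is said to have risen or fallen where the Benjamini-Hochberg adjusted p over all 11883 tested genes was under 0.05. Totals were 8427352 to 28587416 counts per library. Each treatment showed its marker response: 6 of 6 heme response genes rose at each dose, 7 of 8 IL-4 response genes rose with IL-4, and 8 of 8 IFN-γ response genes rose with IFN-γ. All 7 macrophage markers had counts in every group. Their summed level was 32710 to 38150 CPM in controls, 46390 to 55160 CPM at 200 µM and 41600 to 51730 CPM at 400 µM. It was 14240 to 20320 CPM with IL-4 and 12780 to 26090 CPM with IFN-γ. The sum was mostly Lyz2, with group means of 28790, 46040, 41390, 11340 and 10510 CPM in that order. With IL-4, Fcgr1 (-4.08 ± 0.28) and Lyz2 (-1.34 ± 0.31) were lower and 0 of the 7 higher. With IFN-γ, Fcgr1 (2.37 ± 0.25) and Mertk (2.17 ± 0.46) were higher and Cd68 (-0.55 ± 0.14) and Lyz2 (-1.45 ± 0.31) lower. Of the 7, 1 was lower at 200 µM and 2 at 400 µM, and 0 were higher at either dose. The calcitonin receptor gene Calcr, a marker of mature osteoclasts, had 0 counts in all 15 libraries. A floor of 3 counts over a group corresponds to 0.0469 to 0.0994 CPM here. Heme-albumin 400 µM replicate 2 and IFN-γ replicate 3 stood apart from their groups in several of the genes below, and the results of the 9 genes that turn on them are given without them as well. For the pathway lists, fits without 400 µM replicate 2 (for 400 µM) and without IFN-γ replicate 3 (for IFN-γ) were added after the data were seen.

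Of the 9 genes, 8 carried enough counts to be tested. Ocstamp and Cdh1 were near 0 in controls and passed the filter on low counts through the groups where they are high, so the counts of changed genes below are descriptions and do not support each other. With IL-4, 7 of the 8 rose and 0 fell, where 14.9% of all tested genes rose and 12.0% fell. The median log2 change of the 8 was 4.04, beside -0.00 over all tested genes. With IFN-γ, 3 rose and 2 fell, in a comparison in which 24.1% of all tested genes rose and 19.5% fell, and the median of the 8 was -0.16 beside 0.05. Heme-albumin at 400 µM raised 2 of the 8 (14.7% of all tested genes rose and 10.8% fell), and at 200 µM it raised 1 (14.0% rose and 9.48% fell), with 0 falling at either dose. The medians were 0.94 beside 0.01 at 400 µM and 0.87 beside 0.02 at 200 µM. The 4 comparisons share the same 3 controls. Because these are bulk libraries, fewer cells of a type and less RNA per cell cannot be told apart.

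**Figure D1:**
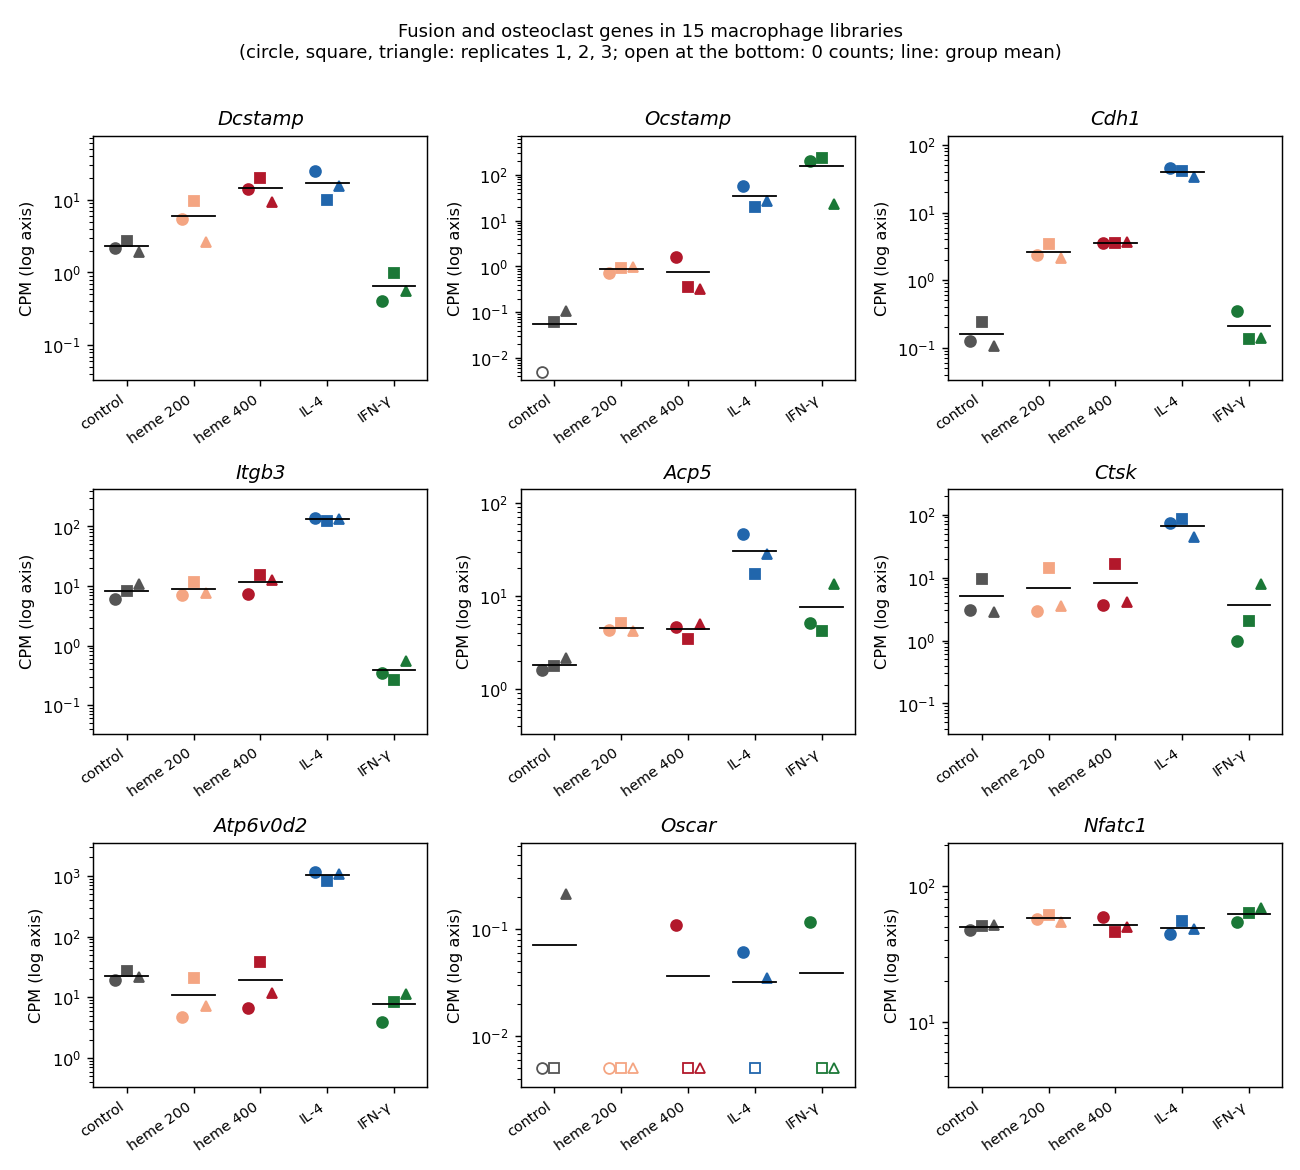
Level of each of the 9 genes in the 15 libraries, in CPM on a log axis, with replicates 1, 2 and 3 as circle, square and triangle, open symbols at the bottom for 0 counts and a line at each group mean. The IL-4 libraries lie above every control library for 7 genes, Ocstamp is higher still in 2 of the 3 IFN-γ libraries, and Nfatc1 stays between 44.4 and 69.3 CPM throughout.

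Dcstamp (ENSMUSG00000022303, GRCm38 chr15:39745930-39760938, plus strand) encodes DC-STAMP, the multi-pass membrane protein that precursors need for cell-cell fusion. Its level was 2.17, 2.72 and 1.93 CPM in control replicates 1 to 3, 5.37, 9.72 and 2.65 CPM with heme-albumin at 200 µM, and 14.0, 19.7 and 9.28 CPM at 400 µM. It was 25.1, 9.80 and 15.5 CPM with IL-4 and 0.410, 0.978 and 0.551 CPM with IFN-γ. Every library at 400 µM and every IL-4 library was above every control, every IFN-γ library was below every control, and the 200 µM group reached into the controls through its replicate 3. Dcstamp rose by 2.62 ± 0.47 at 400 µM (adjusted p = 0.00125) and by 2.86 ± 0.47 with IL-4 (adjusted p = 0.000509). Summed neutrophil markers, 7 of 7 with counts in every group, were mostly S100a8 in the heme groups. They were 15.4, 33.7 and 9.97 CPM at 200 µM and 36.2, 54.9 and 16.4 CPM at 400 µM, in the same library order as Dcstamp. The orders matched with IL-4 as well (33.85, 1.70 and 6.88 CPM). They differed in controls (20.7, 3.69 and 4.41 CPM) and with IFN-γ (24.4, 2.22 and 43.1 CPM). Fitted changes of S100a8, Mpo and S100a9 were 2.21, 2.76 and -1.06 at 200 µM and 3.03, 3.70 and -0.09 at 400 µM. None of the 3 tested was called at either dose, and their part in the Dcstamp levels was not tested. The direct difference between 400 µM and IL-4 was -0.24 ± 0.41, with a 95% interval of -1.12 to 0.65 and an adjusted p of 0.680. Dcstamp and Nfatc1 were the 2 tested genes of the set without a called difference between those groups.

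At 200 µM the Dcstamp change was 1.37 ± 0.48, with an adjusted p of 0.0536 that missed the threshold. It passed when replicate number was added as a block (0.0443), with DESeq2 (0.0215), with only the 6 libraries compared (0.0260) and without 200 µM replicate 3 (0.0204), in a range of 0.0204 to 0.289 over 12 alternatives. The dose difference, 400 against 200 µM, was 1.25 ± 0.44 and was not called (adjusted p = 0.297). In that comparison edgeR called 0% of all tested genes (0 genes, with 1796 at an unadjusted p under 0.05), and DESeq2 called 11 genes (1801 unadjusted). Neither called any of the 8. The 95% interval of the Dcstamp difference was 0.31 to 2.19, and each library at 400 µM was above the library of the same number at 200 µM. With IFN-γ, Dcstamp fell by 1.77 ± 0.57 on the log2 scale (adjusted p = 0.0232). That call rested on 37 counts over the IFN-γ group and was lost without control 2 (0.0714), IFN-γ 1 (0.0694) or IFN-γ 3 (0.0667) and without both libraries that stood apart (0.0599), in a range of 0.00202 to 0.0714 over 13 alternatives.

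Ocstamp (ENSMUSG00000027670, chr2:165393760-165400405, minus strand) encodes OC-STAMP, the partner protein that osteoclasts and giant cells also need to fuse. Over the 3 controls it had 2 counts in all, 0, 0.0605 and 0.107 CPM by library. It had 0.715, 0.929 and 0.955 CPM at 200 µM and 1.64, 0.360 and 0.314 CPM at 400 µM, which is 30 and 22 counts per group. It had 57.5, 19.9 and 26.9 CPM with IL-4 and 199.5, 235 and 22.9 CPM with IFN-γ. All treated libraries were above all controls, and the IFN-γ libraries spread 10.3-fold, with replicate 3 inside the range of the IL-4 group.

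As ratios of summed counts per depth, which cover counting error only, Ocstamp was 676-fold higher with IL-4 than in controls (95% interval 187 to 5589) and 3461-fold higher with IFN-γ (958 to 28580). edgeR's adjusted p was 0.000128 for IL-4 and 9.31e-06 for IFN-γ, and both calls held in every alternative in which the gene was tested. The ratio to control was 17.6 (4.48 to 152) at 200 µM and 15.1 (3.71 to 132.5) at 400 µM, and edgeR called neither (adjusted p = 0.211 and 0.260), while DESeq2 called both (0.0115 and 0.0159). Over the alternatives the adjusted p ran from 0.0115 to 0.389 at 200 µM and from 0.0159 to 0.562 at 400 µM. Directly compared, Ocstamp was lower with IL-4 than with IFN-γ by -2.14 ± 0.62 (adjusted p = 0.0105). With only those 6 libraries in the fit that call was lost (0.0807, range 2.05e-05 to 0.0807). Summed dendritic cell markers were 57.3, 66.6 and 34.5 CPM in IFN-γ replicates 1 to 3, in the same library order as Ocstamp, against 9.79 to 16.2 CPM in controls. With IL-4 they were 774, 429 and 658 CPM, mostly Itgax, and in the library order of Ocstamp as well. The orders differed in the other groups, where Ocstamp was low. There the sums were 9.79, 16.2 and 11.6 CPM in controls, 2.50, 18.4 and 4.03 CPM at 200 µM and 7.34, 32.5 and 7.94 CPM at 400 µM. Between the cytokines the sum was higher with IL-4, while mean Ocstamp was lower there (34.7 against 152.5 CPM). Most of the IFN-γ sum was Clec9a, with 1 count over the controls and 2206 over the IFN-γ group (adjusted p = 3.22e-07 by edgeR), followed by Xcr1, with 2 and 403 counts, which was not tested. The part of these markers in the Ocstamp levels was not tested.

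The fusion receptors ordered the groups differently. The plot of Dcstamp against Ocstamp places the IFN-γ libraries at the lowest Dcstamp levels and 2 of them at the highest Ocstamp levels, the IL-4 libraries high for both, and the 400 µM libraries high for Dcstamp with at most 1.64 CPM of Ocstamp. For Dcstamp the order of group means was IFN-γ, control, 200 µM, 400 µM and IL-4, and no difference between neighbours from control upward was called. For Ocstamp it was control, 400 µM, 200 µM, IL-4 and IFN-γ, and no difference between the heme groups was called (-0.21 ± 1.35, adjusted p = 0.961). The step from 200 µM to IL-4 was called (-5.33 ± 0.87, 200 µM minus IL-4, adjusted p = 0.000367). Over the 15 libraries, which fall into treatment groups, the Pearson r of the log2 levels of the pair was -0.21, given as a description.

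**Figure D2:**
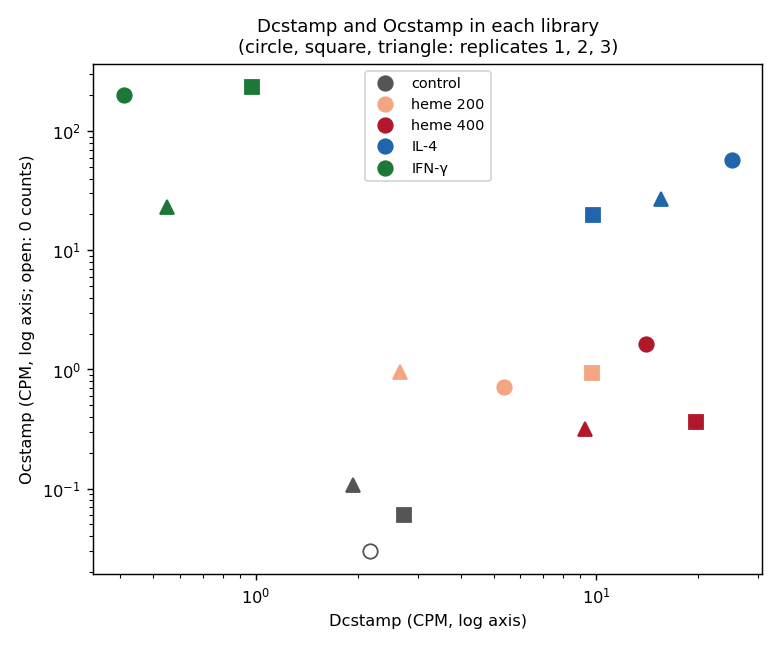
Ocstamp against Dcstamp in each of the 15 libraries, in CPM on log axes, colored by group, with replicates 1, 2 and 3 as circle, square and triangle and an open symbol for the control with 0 Ocstamp counts. IFN-γ libraries sit at the upper left and IL-4 libraries at the upper right; heme-albumin libraries lie below both, with Ocstamp from 0.314 to 1.64 CPM, and those at 400 µM overlap the IL-4 libraries in Dcstamp.

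A list of 24 genes of cell fusion includes Dcstamp and Ocstamp, and 23 of the 24 were tested. With IL-4, 7 rose, Dcstamp and Ocstamp included, and 3 fell (median -0.04, all genes -0.00). Among them were the fatty acid scavenger receptor Cd36 (1.61 ± 0.28) and the inhibitory receptor Cd200r1 (1.17 ± 0.22), which rose, and the podosome scaffold Sh3pxd2a, or TKS5 (-2.04 ± 0.16), which fell, as did the Rac activator Dock5. With IFN-γ, 4 rose, Ocstamp included, and 7 fell, Dcstamp included (median -0.03, all genes 0.05). The falls included the gelatinase Mmp9 (-3.18 ± 0.82), Sh3pxd2a (-2.16 ± 0.16) and the fusion-regulating tetraspanin Cd9 (-1.76 ± 0.22). Heme-albumin at 400 µM raised 6, Dcstamp included, and lowered 5, and at 200 µM it raised 5 and lowered 4. The rises shared in name at both doses included Cd36 (2.27 ± 0.28 at 400 µM), the channel gene Panx1 (1.26 ± 0.21) and the sheddase Adam8 (1.08 ± 0.15). Sirpa, the receptor for CD47, fell at 200 µM (-0.60 ± 0.17) and at 400 µM (-0.75 ± 0.17). Without IFN-γ replicate 3 the IFN-γ counts were 4 and 5.

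Cdh1 (ENSMUSG00000000303, chr8:106603351-106670246, plus strand) encodes E-cadherin, the homophilic adhesion molecule of epithelia that alternatively activated macrophages also make. In controls it had 0.128, 0.242 and 0.107 CPM, 7 counts over the group, and with IFN-γ 0.352, 0.133 and 0.138 CPM. It had 2.36, 3.38 and 2.12 CPM at 200 µM, 3.50, 3.60 and 3.62 CPM at 400 µM, and 45.3, 41.5 and 33.6 CPM with IL-4. The groups formed 3 separate levels: control and IFN-γ overlapped at the bottom, the heme-albumin groups lay above them, and the IL-4 group lay above all others.

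Cdh1 rose by 3.90 ± 0.36 at 200 µM (adjusted p = 6.98e-06), by 4.34 ± 0.35 at 400 µM (adjusted p = 2.41e-06) and by 7.83 ± 0.31 with IL-4 (adjusted p = 5.45e-09), and these calls held under every alternative run. It was the single gene of the set called at both heme doses. The IFN-γ change was 0.27 ± 0.52 (adjusted p = 0.773). Between doses the difference was 0.44 ± 0.23, not called (adjusted p = 0.376), although the 400 µM libraries were all above the 200 µM libraries. Cdh1 was lower at 400 µM than with IL-4 by -3.49 ± 0.21 (adjusted p = 7.56e-08). It was higher at 200 µM than with IFN-γ by 3.63 ± 0.33 (adjusted p = 1.20e-06), in a comparison in which 42.1% of all tested genes were called and 3 of the 8 genes were higher and 1 lower at 200 µM.

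Defining epithelial markers did not accompany it. Of 6 such genes, Krt8 and Esrp1 had 0 counts in all groups, all 6 had 0 counts at 400 µM, and the summed level of the 6 was at most 0.121 CPM in any library. With IL-4 the cytoplasmic partners of E-cadherin moved little beside the change of Cdh1. Of 5 tested genes of the complex, 3 rose there, plakoglobin (Jup, 1.48 ± 0.17), vinculin (Vcl, 0.45 ± 0.16) and β-catenin (Ctnnb1, 0.34 ± 0.12). With IFN-γ, where Cdh1 changed by 0.27 ± 0.52 and was not called, 3 fell. These were Vcl (-1.68 ± 0.17), α-catenin (Ctnna1, -0.52 ± 0.09) and p120-catenin (Ctnnd1, -0.26 ± 0.10). At 400 µM 2 fell, Jup (-0.56 ± 0.18) and Ctnnd1 (-0.35 ± 0.10), and at 200 µM 1 fell, Ctnnd1 (-0.36 ± 0.10). Without 400 µM replicate 2 neither Jup (adjusted p = 0.112) nor Ctnnd1 (0.0718) was called at 400 µM, and without IFN-γ replicate 3 Ctnnd1 was not (0.0570). The median over the list was 0.34 with IL-4, -0.42 with IFN-γ, -0.27 at 400 µM and -0.25 at 200 µM. Cdh2, which encodes N-cadherin, had too few counts to be tested.

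Itgb3 (ENSMUSG00000020689, chr11:104608000-104670476, plus strand) encodes integrin β3, which pairs with αv on osteoclasts to bind osteopontin and seal the resorbing cell to bone. It had 6.14, 8.23 and 10.6 CPM in controls, 7.01, 11.8 and 7.74 CPM at 200 µM and 7.34, 15.5 and 12.5 CPM at 400 µM. It had 140, 122 and 135 CPM with IL-4 and 0.352, 0.267 and 0.551 CPM with IFN-γ. The control and heme-albumin groups overlapped, while the IL-4 libraries were all above them and the IFN-γ libraries all below. Itgb3 rose by 4.01 ± 0.27 with IL-4 (adjusted p = 3.88e-07) and fell by 4.43 ± 0.39 with IFN-γ (adjusted p = 1.30e-06). The cytokines set it 8.44 ± 0.37 apart on the log2 scale (IL-4 minus IFN-γ, adjusted p = 1.18e-09), and these 3 calls held under every alternative.

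The heme-albumin changes of Itgb3 were 0.11 ± 0.27 at 200 µM (95% interval -0.48 to 0.69, adjusted p = 0.808) and 0.51 ± 0.27 at 400 µM (-0.06 to 1.09, adjusted p = 0.179). The change at 400 µM was called without replicate 1 of that group (0.0405, range 0.0405 to 0.527 over 13 alternatives). Itgb3 is also made by megakaryocytes, and the summed level of 5 megakaryocyte and platelet markers was 130 to 246 CPM in controls, 425 to 479 CPM at 200 µM, 361 to 680 CPM at 400 µM, 83.6 to 112.5 CPM with IL-4 and 13.4 to 35.1 CPM with IFN-γ. Of these, the platelet receptor gene Gp9 had 0 counts in all groups, and 4 of 5 had counts in each group. The sum was mostly Pf4 (196.5 CPM in controls and 440 CPM at 200 µM), whereas Gp1bb fell at 200 µM (-2.44 ± 0.57) and at 400 µM (-2.78 ± 0.62). The list was lower with IL-4, where Itgb3 was highest, and lowest with IFN-γ, where Itgb3 was lowest, and its part in the Itgb3 levels was not tested.

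Other genes of β3 integrin signalling went in both directions. Of 14 tested, 2 rose and 4 fell with IL-4 (median 0.03, all genes -0.00), and 6 rose and 2 fell with IFN-γ (median 0.40, all genes 0.05). Spp1, which encodes the αvβ3 ligand osteopontin, fell with IL-4 (-2.99 ± 0.54) and with IFN-γ (-3.26 ± 0.55). The leukocyte integrin subunit Itgb2 rose with IL-4 (0.98 ± 0.13). Itgav, the αv partner of β3, fell with IL-4 (-0.59 ± 0.17) and rose with IFN-γ (1.05 ± 0.17). At 400 µM 3 rose and 2 fell, with rises of the kinases Src (2.61 ± 0.79) and Ptk2b (0.73 ± 0.10) and a fall of Itgb5 (-0.82 ± 0.17), and at 200 µM 2 rose and 2 fell. Src was not called at 400 µM without replicate 2 of that group (adjusted p = 0.0796), where 2 rose and 2 fell. Without IFN-γ replicate 3 the IFN-γ counts were 5 and 2, with a median of 0.24.

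Acp5 (ENSMUSG00000001348, chr9:22126727-22135711, minus strand) encodes tartrate-resistant acid phosphatase, the histochemical marker of osteoclasts. Ctsk (ENSMUSG00000028111, chr3:95499256-95509362, plus strand) encodes cathepsin K, the protease that cuts bone collagen. Both rose with IL-4, and their upstream sequence is shown because they are the risen genes of the set that RefSeq's promoter table (GRCm38.p6) holds; 3 of the 9 genes matched it, with 5 windows of 250 bases upstream of a start. The sequences are 5′ to 3′ on the gene's strand, with capitals for TTCNNNNGAA (the STAT6-type spacing), TGANTCA (AP-1), GGAAA (the NFAT core) and GAGGAA (a PU.1 core). The E-boxes CACGTG and CATGTG were searched as well, all on both strands. The Acp5 window printed is chr9:22130599-22130848, minus strand, inside the annotated span of the gene before an internal start. It is the single Acp5 window that holds TTCNNNNGAA. The other 2 Acp5 windows are not printed, and 1 of them, chr9:22135747-22135996, lies upstream of the annotated span. The Ctsk window is chr3:95498960-95499209, plus strand.
Acp5: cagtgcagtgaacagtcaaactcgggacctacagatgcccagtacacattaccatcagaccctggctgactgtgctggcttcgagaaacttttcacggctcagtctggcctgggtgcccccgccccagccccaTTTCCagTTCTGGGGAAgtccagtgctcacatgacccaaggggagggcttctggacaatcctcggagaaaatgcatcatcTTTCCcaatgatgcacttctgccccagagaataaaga
Ctsk: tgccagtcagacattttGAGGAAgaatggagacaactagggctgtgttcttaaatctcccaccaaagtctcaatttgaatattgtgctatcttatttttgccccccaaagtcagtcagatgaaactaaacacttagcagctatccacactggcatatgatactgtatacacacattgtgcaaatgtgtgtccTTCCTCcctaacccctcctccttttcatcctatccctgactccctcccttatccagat
The Acp5 window holds TTCNNNNGAA once, with GGAAA on the opposite strand at 2 places that do not overlap it, and the E-box CATGTG once, which is not capitalized. The Ctsk window holds GAGGAA at 2 places, 1 on each strand, and none of the other 5 motifs. Of the 32851 windows of this length in the table, 5.85% hold TTCNNNNGAA, 6.75% TGANTCA, 6.02% CACGTG, 55.6% GGAAA, 12.3% CATGTG and 23.3% GAGGAA. Of the 5 windows, TTCNNNNGAA was in that 1 Acp5 window and in neither the other 2 Acp5 windows nor the Oscar and Ctsk windows. A match of letters is a description and does not show that a factor binds there.

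Acp5 had 1.60, 1.75 and 2.15 CPM in controls, 4.29, 5.15 and 4.24 CPM at 200 µM, and 4.71, 3.48 and 4.95 CPM at 400 µM. It had 46.6, 17.2 and 28.2 CPM with IL-4 and 5.16, 4.18 and 13.4 CPM with IFN-γ. Every treated library lay above every control, and every IL-4 library lay above every other library. Acp5 rose by 4.08 ± 0.46 with IL-4 (adjusted p = 2.66e-05) and by 2.04 ± 0.46 with IFN-γ (adjusted p = 0.00319), and both calls held in every alternative. With IFN-γ replicate 3 left out, the fold was 1.36 on the log2 scale in place of 2.04, in a range of 1.36 to 2.35. Acp5 and Ocstamp were the genes of the set that rose with each cytokine.

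The heme-albumin changes of Acp5 were 1.33 ± 0.48 at 200 µM (adjusted p = 0.0603) and 1.28 ± 0.49 at 400 µM (adjusted p = 0.0697), neither called. At 200 µM the change was called with the replicate block (0.0453), DESeq2 (0.0192) and only the 6 libraries compared (0.00171), in a range of 0.00171 to 0.171 over 12 alternatives. At 400 µM it was called with DESeq2 (0.0241), with only the 6 libraries compared (0.00656) and without both libraries that stood apart (0.0228), in a range of 0.00656 to 0.170 over 13. No difference between doses was called (-0.05 ± 0.45, 95% interval -1.02 to 0.92, adjusted p = 0.974), nor one of either dose from IFN-γ (-0.71 ± 0.42 at 200 µM and -0.76 ± 0.43 at 400 µM, heme-albumin minus IFN-γ, adjusted p = 0.198 and 0.173). In the comparison of 400 µM with IFN-γ 3 of the 8 genes were higher and 1 lower, where 42.9% of all tested genes were called. The order of group means was control, 400 µM, 200 µM, IFN-γ and IL-4. In GENCODE M21 the exons of Acp5 share 137 bases with a transcript on the opposite strand, 6530413G14Rik, that has no row in the table, and no source used here gives the strand setting of the counting, which makes the assignment of reads in that stretch uncertain.

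Ctsk had 3.07, 9.38 and 2.79 CPM in controls, 2.93, 14.2 and 3.50 CPM at 200 µM and 3.72, 16.4 and 4.09 CPM at 400 µM. The IL-4 libraries had 72.5, 83.6 and 44.6 CPM, and the IFN-γ libraries 0.996, 2.05 and 7.78 CPM. The control, heme-albumin and IFN-γ groups overlapped, and the IL-4 libraries were all above them. Ctsk rose by 3.67 ± 0.80 with IL-4 (adjusted p = 0.00380). Its changes at 200 µM (0.40 ± 0.80, adjusted p = 0.755), at 400 µM (0.59 ± 0.81, adjusted p = 0.630) and with IFN-γ (-0.58 ± 0.82, adjusted p = 0.590) were not called. The sign at 200 µM turned without replicate 2 of that group (-0.71), the sign at 400 µM without its replicate 2 (-0.42), and the sign with IFN-γ without control 2 (0.23).

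Other resorption genes, a list of 15 with 14 tested, gave 5 rises and 1 fall with IL-4 (median 0.28, all genes -0.00) and 7 rises and 4 falls with IFN-γ (median 0.72, all genes 0.05). Car2, the carbonic anhydrase that supplies protons for bone dissolution, had 2 counts over the controls and 137 over the IL-4 group, a ratio of 44.4 (95% counting interval 12.1 to 370), and rose with IL-4 (adjusted p = 8.40e-05). The cathepsins Ctss and Ctsl rose with IL-4 (1.32 ± 0.38 and 1.15 ± 0.14), and the membrane-bound protease Mmp14 fell (-4.65 ± 1.44). With IFN-γ, Ctss (1.99 ± 0.39) rose and Mmp9 fell (-3.18 ± 0.82). Src, at 2.24 ± 0.78 with IFN-γ, was 0.32 ± 0.45 without IFN-γ replicate 3 and not called (adjusted p = 0.610), and the counts were then 6 and 3 with a median of 0.27. At 400 µM 4 rose and 1 fell, and at 200 µM 2 rose and 1 fell (at 400 µM without its replicate 2, 2 rose and 1 fell), with Ctsl higher (1.15 ± 0.14 and 1.01 ± 0.14) and Ctsb, cathepsin B, lower (-0.63 ± 0.16 and -0.77 ± 0.16) at 400 and 200 µM.

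Atp6v0d2 (ENSMUSG00000028238, chr4:19876841-19922605, minus strand) encodes the d2 subunit of the vacuolar proton pump (V-ATPase), the form of the d subunit that is abundant in osteoclasts and takes part in fusion. It had 19.4, 27.3 and 21.4 CPM in controls, 4.72, 21.1 and 7.32 CPM at 200 µM and 6.68, 38.5 and 11.6 CPM at 400 µM. It had 1158, 822 and 1060 CPM with IL-4 and 3.87, 8.27 and 11.4 CPM with IFN-γ. The IL-4 libraries were all above the rest, the IFN-γ libraries were all below the controls, and the heme-albumin groups spread across the control range and beyond it. Atp6v0d2 rose by 5.48 ± 0.66 with IL-4 (adjusted p = 4.62e-05), a call that held under every alternative.

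With IFN-γ the Atp6v0d2 change was -1.54 ± 0.60, with an adjusted p of 0.0515 that missed the threshold. It passed with the replicate block (0.0242), with DESeq2 size factors in edgeR (0.0488), with no filter on low counts (0.0455), with only the 6 libraries compared (0.0192), without IFN-γ replicate 3 (0.0396) and without both libraries that stood apart (0.00813), in a range of 0.00813 to 0.139 over 13 alternatives. The heme-albumin changes were -1.04 ± 0.60 at 200 µM (adjusted p = 0.229) and -0.28 ± 0.59 at 400 µM (adjusted p = 0.763). Without replicate 2 of the 400 µM group the latter was -1.29, in a range of -1.29 to 0.12. The order of group means was IFN-γ, 200 µM, 400 µM, control and IL-4, and IL-4 was the single step between neighbours that was called.

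Per kilobase of exon, which allows levels of different genes to be compared, Atp6v0d2 had the highest level of the set with IL-4, 373 ± 63.7 CPM per kb. Ctsk followed at 44.2 ± 13.3, Itgb3 at 22.4 ± 1.52, Acp5 at 15.1 ± 7.34, Ocstamp at 9.50 ± 5.47, Cdh1 at 8.77 ± 1.30, Nfatc1 at 6.63 ± 0.76 and Dcstamp at 6.30 ± 2.90 CPM per kb. In controls Atp6v0d2 (8.37 ± 1.52) and Nfatc1 (6.72 ± 0.35) had the highest levels of the set, with Ctsk at 3.36 ± 2.46 and the other genes at 1.41 CPM per kb or less. With IFN-γ the highest was Ocstamp, at 41.7 ± 31.1 CPM per kb.

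Of 17 other V-ATPase subunit genes, all tested, 9 rose and 0 fell with IL-4 (median 0.38, all genes -0.00). The a1 subunit gene Atp6v0a1 rose by 2.44 ± 0.14, and Atp6v1b2 (1.04 ± 0.15), Atp6v0c (0.96 ± 0.19) and Tcirg1 (0.80 ± 0.23), which encodes the a3 subunit of osteoclasts, rose by less. Atp6v0d1, the ubiquitous form of the d subunit, rose by 0.28 ± 0.07. Its level per kilobase was 137 CPM in controls and 166 CPM with IL-4, so the d2 form was below the d1 form in controls and above it with IL-4. With IFN-γ 2 rose and 4 fell (median -0.14), with Atp6v0a1 lower (-2.02 ± 0.14) and Atp6v0a2 higher (0.88 ± 0.10), and 2 rose and 6 fell without IFN-γ replicate 3. Heme-albumin raised 3 at each dose and lowered 2 at 400 µM and 1 at 200 µM.

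Within groups, the levels of Ctsk and Atp6v0d2 followed the replicate number in part. Both were highest in replicate 2 among controls, at 200 µM and at 400 µM. The highest library was 3.36, 4.84 and 4.41 times the lowest for Ctsk in those groups, and 1.41, 4.47 and 5.76 times for Atp6v0d2. With IL-4, replicate 2 was the highest for Ctsk and the lowest for Atp6v0d2, and with IFN-γ replicate 3 was the highest for both. The column names carry 3 dates, 1 per replicate number, of unstated meaning. Of 6 dendritic cell markers, which include the integrin gene Itgax, 3 to 6 had counts by group. They summed to 32.5 CPM in 400 µM replicate 2 against 7.34 and 7.94 CPM in replicates 1 and 3, and to 18.4 against 2.50 and 4.03 CPM at 200 µM. In the IL-4 group they summed to 429 to 774 CPM, mostly from Itgax, against 9.79 to 16.2 CPM in controls. Zbtb46 rose with IL-4 as well (2.24 ± 0.60), and the plasmacytoid marker Siglech was at 0 counts in all groups but IFN-γ. Lymphoid markers summed to 444 CPM in 400 µM replicate 2 against 110 and 136 CPM, with Cd3e and Cd3d at 0 counts in every group. Nearly all of that sum was Il7r, which rose at 400 µM (2.04 ± 0.55) and with IL-4 (1.64 ± 0.55). Cd2 had 2 counts over the controls, 14 at 200 µM, 12 at 400 µM and 100 with IL-4, and was called higher with each of these treatments. In IFN-γ replicate 3 the response genes Cxcl9 and Nos2 were at 557.5 and 549.6 CPM, against at most 93.5 and 142.5 CPM in the others. The part of these markers in the levels of Ctsk and Atp6v0d2 was not tested.

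**Figure D3:**
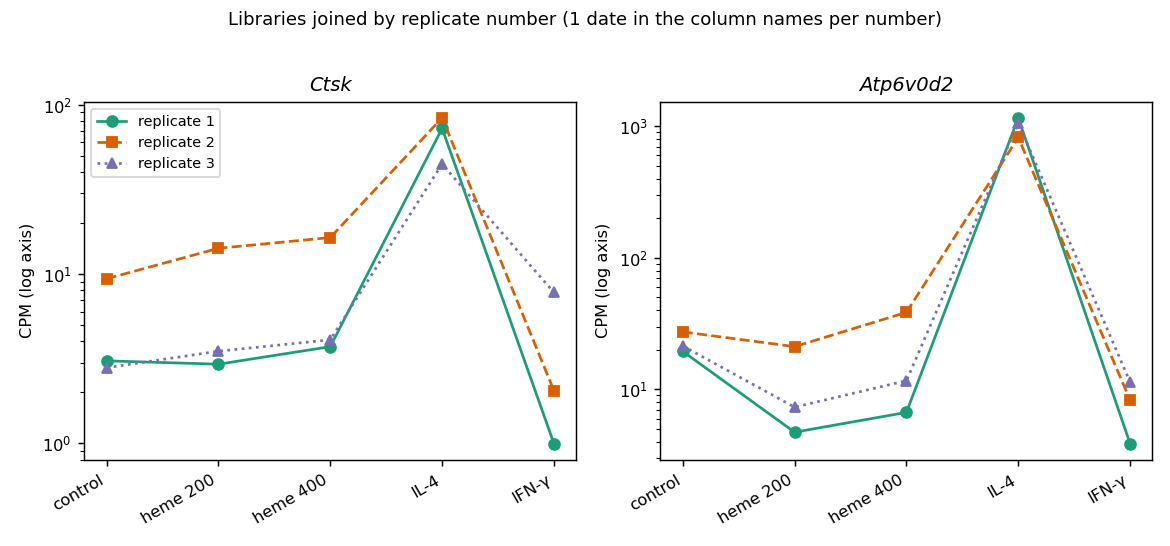
Levels of Ctsk and Atp6v0d2 in CPM on a log axis across the 5 groups, with the libraries of each replicate number joined by a line (circle, square and triangle for replicates 1, 2 and 3). Replicate 2 is the highest in the control and heme-albumin groups for both genes, and the IL-4 libraries, from 44.6 CPM for Ctsk and 822 CPM for Atp6v0d2, lie above all others.

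Oscar (ENSMUSG00000054594, chr7:3609813-3616157, minus strand) encodes the collagen receptor that gives osteoclast precursors their co-stimulatory signal. It was not tested: its counts in replicates 1 to 3 were 0, 0 and 2 in controls, 0 in each library at 200 µM, and 1, 0 and 0 at 400 µM. The IL-4 libraries had 1, 0 and 1 counts and the IFN-γ libraries 2, 0 and 0. Every group was at or under the floor of 3 counts, so no fold is given, and a difference between groups was not detectable at this depth.

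Nfatc1 (ENSMUSG00000033016, chr18:80606205-80713071, minus strand) encodes NFATc1, the transcription factor known as the master regulator of osteoclast formation. It had 47.3, 51.1 and 52.2 CPM in controls, 57.7, 61.5 and 54.8 CPM at 200 µM, 59.2, 46.2 and 50.1 CPM at 400 µM, 44.4, 55.7 and 48.4 CPM with IL-4 and 54.5, 63.9 and 69.3 CPM with IFN-γ. It was present at a similar level in all groups, with the 200 µM and IFN-γ libraries all just above the controls. The IL-4 change was -0.02 ± 0.12, with a 95% interval of -0.27 to 0.24 (adjusted p = 0.932), in the group where the other 7 tested genes rose. The changes were 0.21 ± 0.12 at 200 µM (adjusted p = 0.224) and 0.05 ± 0.12 at 400 µM (adjusted p = 0.810). With IFN-γ Nfatc1 rose by 0.32 ± 0.12, a 1.25-fold change (adjusted p = 0.0431). That call was lost with the replicate block (0.0509), with DESeq2 size factors (0.0550), with no filter (0.0709), with only the 6 libraries compared (0.0986), without both libraries that stood apart (0.109) and without control 1 (0.141), control 2 (0.0923), control 3 (0.0712), IFN-γ 2 (0.0937) or IFN-γ 3 (0.146). Its adjusted p ranged from 0.0141 to 0.146 over 13 alternatives.

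Upstream of Nfatc1, 15 genes of RANK and M-CSF receptor input were listed and 11 tested. With IL-4 1 rose and 2 fell: Tnfrsf11a, which encodes RANK itself, fell by 0.83 ± 0.15 on the log2 scale, Fcer1g, the adaptor through which OSCAR signals, fell by 0.53 ± 0.14, and Trem2 rose by 0.52 ± 0.16. With IFN-γ 2 rose, the TNF receptor Tnfrsf1a (0.77 ± 0.14) and the adaptor Traf6 (0.35 ± 0.10), and 0 fell. Fcer1g and Lgr4, a second receptor for RANKL, fell at 200 µM (-0.64 ± 0.14 and -1.52 ± 0.34) and at 400 µM (-0.83 ± 0.14 and -2.76 ± 0.41), where 2 rose and 2 fell at 200 µM and 1 rose and 2 fell at 400 µM. The medians of this list were -0.04 with IL-4, 0.22 with IFN-γ, 0.09 at 200 µM and -0.06 at 400 µM.

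Of 10 tested genes of calcineurin and NFAT signalling, 0 rose and 3 fell with IL-4 (median -0.17), among them Nfatc2 (-0.85 ± 0.27) and the phospholipase Plcg2 (-0.45 ± 0.09). With IFN-γ 2 rose and 3 fell (median -0.07), with Nfatc2 higher (0.79 ± 0.26) and the kinase gene Tec lower (-0.60 ± 0.13). Heme-albumin raised Plcg2 at each dose (0.40 ± 0.09 and 0.38 ± 0.09 at 200 and 400 µM) and lowered Ppp3cb, a catalytic subunit of calcineurin, at 200 µM (-0.33 ± 0.10). Of 18 transcription factors of osteoclasts, all tested, 7 rose and 1 fell with IL-4 (median 0.19) and 6 rose and 1 fell with IFN-γ (median 0.42). With IL-4 the coactivator Ppargc1b (1.97 ± 0.28) and Tfeb (1.94 ± 0.29) rose and the NF-κB subunit Relb fell (-1.68 ± 0.32). With IFN-γ Prdm1, which encodes BLIMP1, a repressor of the repressors of osteoclast formation, rose by 3.41 ± 0.55, and by 2.46 ± 0.36 without IFN-γ replicate 3, where the counts were 5 and 2 and the median 0.09. At 200 µM 4 rose and at 400 µM 3, and 0 fell at either dose. The largest fitted change there was of the AP-1 gene Fosl1 (4.82 ± 0.36 and 4.78 ± 0.36), and its relative Fosl2 rose as well (0.91 ± 0.17 and 0.85 ± 0.17).

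Repressors of osteoclast formation moved in different directions with the cytokines. Of 9 genes, all tested, 8 rose and 0 fell with IFN-γ (median 1.21, all genes 0.05), and Tnfaip3 (0.59, adjusted p = 0.122) was not called. Without IFN-γ replicate 3, 8 rose and 0 fell as well, with a median of 0.86. Id3 rose by 5.09 ± 0.97 (3.55 ± 0.69 without IFN-γ replicate 3), Irf8, which encodes a repressor of NFATc1, by 2.44 ± 0.14 and Id1 by 1.86 ± 0.51. With IL-4 2 rose and 5 fell (median -0.57, all genes -0.00). Id2 (1.06 ± 0.32) was among those that rose, and Id1 (-1.92 ± 0.63) and Ptpn6, the phosphatase SHP-1 (-1.01 ± 0.17), fell. At 200 µM 2 rose and 2 fell, with Irf8 higher (0.40 ± 0.13) and Id2 lower (-1.01 ± 0.33), and at 400 µM 2 rose and 1 fell, with Id3 higher (4.03 ± 1.00). Without 400 µM replicate 2 the counts at 400 µM were 3 and 0.

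**Figure D4:**
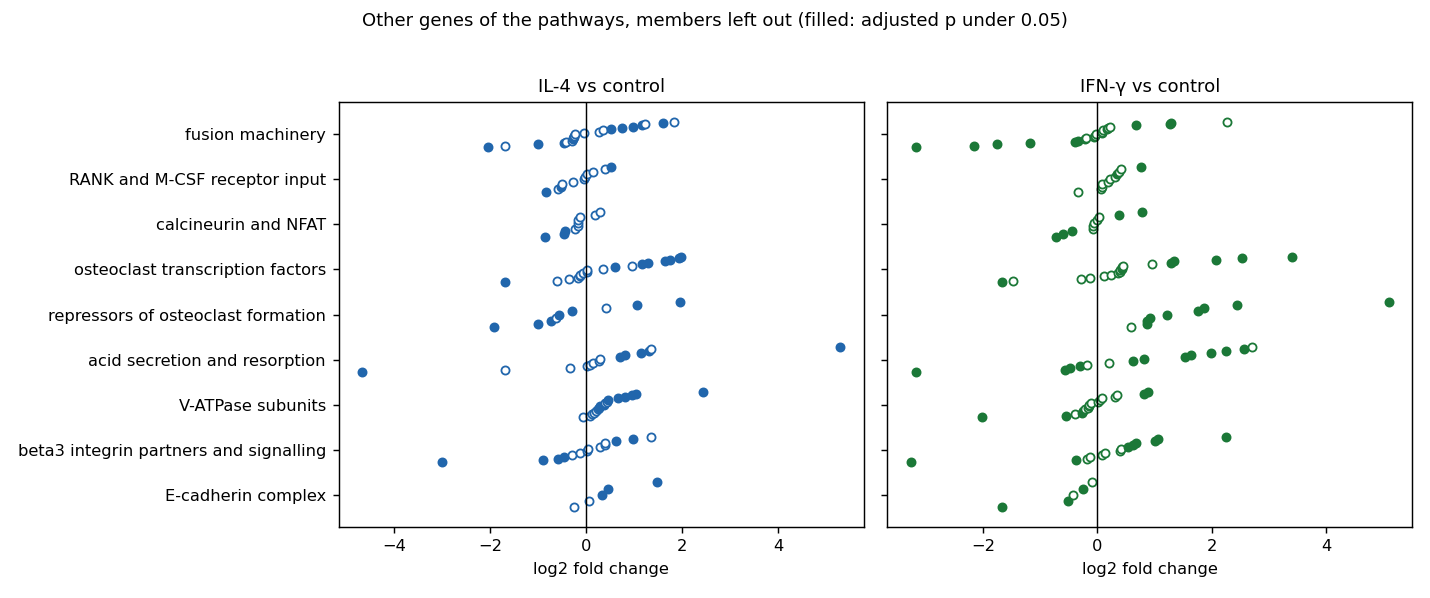
Log2 fold change against control of the other genes of each pathway, the 9 described genes left out, with IL-4 (left) and IFN-γ (right); each point is a gene, filled where the adjusted p was under 0.05 and open otherwise. All 8 filled repressors of osteoclast formation lie above 0 with IFN-γ, and 5 of 7 lie below 0 with IL-4.

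Set directly against IL-4, heme-albumin at 400 µM left 6 of the 8 tested genes lower and 0 higher, in a comparison in which 40.2% of all tested genes were called. The differences of the 6 ran from -2.79 ± 0.43 for Acp5 to -5.76 ± 0.68 for Atp6v0d2, and for each of the 6 all libraries at 400 µM were below all IL-4 libraries. The exceptions were Dcstamp, given above, and Nfatc1 (0.07 ± 0.12, adjusted p = 0.692). At 200 µM 7 of the 8 were lower than with IL-4, Dcstamp included (-1.49 ± 0.43, adjusted p = 0.0171), where 31.4% of all tested genes were called. Between the cytokines all 8 were called, 6 higher with IL-4 and Ocstamp and Nfatc1 higher with IFN-γ, in a comparison in which 50.6% of all tested genes were called. The Nfatc1 difference (-0.34 ± 0.12, IL-4 minus IFN-γ, adjusted p = 0.0285) was lost in 7 of 13 alternatives, in a range of 0.00957 to 0.120. The comparisons with IL-4 share its 3 libraries.

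**Figure D5:**
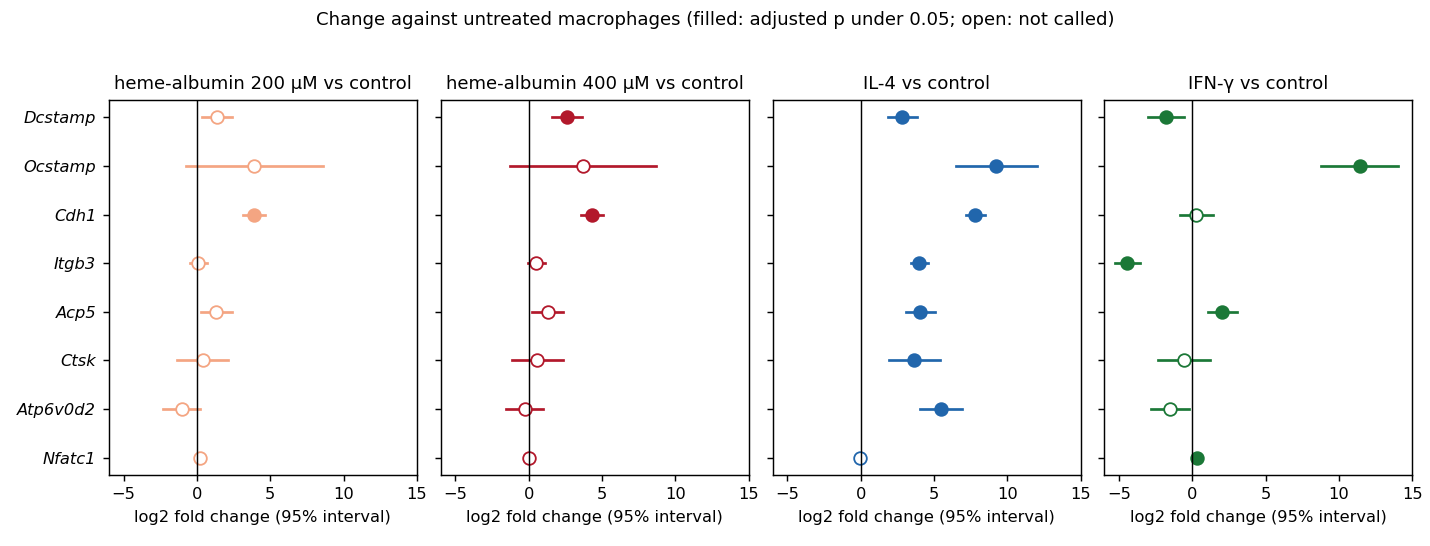
Log2 fold change against control with its 95% interval for the 8 tested genes, in 1 panel per treatment, filled where the adjusted p was under 0.05 and open otherwise. All genes but Nfatc1 are filled and to the right of 0 with IL-4, and Cdh1 is the single gene filled at both heme-albumin doses; the points of Ocstamp rest on 2 control counts and are fitted values.

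The genes whose level over the 15 libraries was most like that of each tested gene were found by Pearson r of log2 CPM among 10846 genes of at least 1 CPM on average. Libraries share group and date, so r is a description. Atp6v0d2 was most like the integrin gene Itgax (r = 0.989), Egr2 and Myrf (both 0.984), and Itgax was at 12.0 CPM in controls and 619 CPM with IL-4. Cdh1 was most like Mcf2l (0.987), Abcd2 (0.972) and Fam129b (0.969), and Mcf2l was at 2.18 CPM in controls, 11.9 and 11.8 CPM at 200 and 400 µM, 56.3 CPM with IL-4 and 2.14 CPM with IFN-γ. Itgb3 was most like Mfge8 (0.984), which encodes a ligand of αvβ3 on dying cells and was at 48.4 CPM in controls, 198 CPM with IL-4 and 8.13 CPM with IFN-γ, and then like Cd300lb (0.983) and Fam198b (0.971).

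Dcstamp was most like Fgfr1 (0.951), a growth factor receptor gene at 4.29 CPM in controls, 28.3 and 46.9 CPM at 200 and 400 µM, 56.8 CPM with IL-4 and 0.488 CPM with IFN-γ, and then like Tacc2 (0.949) and Map1a (0.941). Ocstamp was most like Evl and Flt1 (both 0.965) and Dnah12 (0.953), and Flt1, which encodes VEGF receptor 1, was at 0.364 CPM in controls, 79.9 CPM with IL-4 and 66.0 CPM with IFN-γ. Acp5 was most like Etv3 (0.950), Prkcd (0.939) and Batf3 (0.929), and Ctsk like Ado (0.948), Galm (0.946) and Klf9 (0.946). Nfatc1 was most like Atxn7l3 (0.934), Tbkbp1 (0.918) and Tsc22d4 (0.914). Within the set the highest r was 0.923, between Atp6v0d2 and Ctsk, and none of the 9 genes was among the 3 most like another.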

How the data were processed

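RNA was measured in 15 mouse macrophage libraries (5 groups of 3), made with a stranded kit per the labels' protocols. Reads were aligned with STAR 2.7.0e to GRCm38.p5 and counted with featureCounts, with SAMtools 1.9 also used, per the submitters' processing notes; the strand setting and annotation of the counting are not stated in any source used here. The deposited values are raw counts per gene, with no normalization by the authors. Of 25700 identifiers, 25664 matched a symbol in GENCODE M21 and 36 did not.

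edgeR 4.0.16 (R 4.3.3, limma 3.58.1) was fitted once to all 15 libraries, with TMM factors (0.886 to 1.12), filterByExpr and quasi-likelihood tests, and p-values were Benjamini-Hochberg adjusted over the 11883 tested genes. The script was tested on simulated data. Totals ran from 8427352 to 28587416 counts; intervals and the floor of 3 counts cover counting error only. Alternatives were DESeq2 1.42.0, DESeq2 size factors in edgeR, testing with no low-count filter or with at least 5 CPM in 3 libraries, a replicate block, only the 6 libraries compared, and libraries left out. No 2 libraries of a group were copies (chi-square per degree of freedom 6.19 to 113). The main fit had a mean per group and no pairing. Replicate number entered only in the block alternative, run because column names carry 1 date per number. Deviations from group means correlated at a median of 0.14 over the 30 same-numbered pairs (-0.17 to 0.47, 19 over 0.1), against -0.07 for the other 60. For 14 of 15 libraries the mean correlation with libraries of other groups was highest for the library's own number.

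The 9 genes and the pathway and marker lists were chosen with earlier results of these data known. Genes named are the 9, up to 4 called genes of largest change per list and treatment, and the 3 genes most like each tested gene (log2 CPM with a prior count of 2, mean of at least 1 CPM). Marker genes named beside results were chosen after their values were seen. Some items that this rule would name are not reported here. Figures were drawn with matplotlib 3.10.9.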

Additional observations from a re-analysis of the deposited data

How the results depend on the processing

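Of 708 values of the tested genes recomputed under the alternatives, 641 kept their direction and their side of the threshold, 22 lost and 19 gained a call, and 26 changed sign. No call against control with IL-4 was lost in any alternative run. Of the 8 tested genes, the number called at 200 µM was 1, and 4 with DESeq2, 3 with the replicate block, 3 with only the 6 libraries compared and 1 to 2 with 1 library left out. At 400 µM it was 2, and 4 with DESeq2, and 3 with only the 6 libraries compared, without 400 µM replicate 1 and without both libraries that stood apart. With IFN-γ it was 5, and 3 to 4 with 1 library left out, lowest without control 2. Apart from the calls given beside each result, the block changed none. Sign changes were all in values that were not called. With 1 library left out in turn, log2 changes at 200 µM ranged from -0.711 to 1.194 for Ctsk and from -0.162 to 0.279 for Itgb3. At 400 µM they ranged from -0.419 to 1.409 for Ctsk, from -1.294 to 0.116 for Atp6v0d2 and from -0.061 to 0.122 for Nfatc1. They ranged from -0.110 to 0.053 for Nfatc1 with IL-4, and with IFN-γ from -1.749 to 0.228 for Ctsk and from -0.299 to 0.715 for Cdh1. Between doses they ranged from -1.341 to 0.258 for Ocstamp, from -0.813 to 1.300 for Ctsk, from -0.251 to 1.653 for Atp6v0d2 and from -0.155 to 0.083 for Acp5, and for 400 µM minus IL-4 from -0.532 to 0.164 for Dcstamp and from -0.042 to 0.156 for Nfatc1. Without 400 µM replicate 2 and IFN-γ replicate 3 together, Ctsk at 400 µM was -0.427, and the dose differences were 0.050 for Ocstamp, -0.806 for Ctsk, -0.236 for Atp6v0d2 and 0.088 for Acp5. The cause of these shifts was not tested. Over all genes, 2785 were called at 200 µM, against 4456 with only the 6 libraries compared, 1787 without control 1 and 1679 without 200 µM replicate 2. With IL-4 3190 were called, against 5150 with only the 6 libraries compared, and between doses 0, against 11 with DESeq2 and 1 without both libraries. Of the list genes named, 7 of 27 calls at 400 µM were lost without 400 µM replicate 2 and 2 of 31 with IFN-γ without IFN-γ replicate 3.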
